A study of Mus musculus with 14 samples.

Results

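Methylation of lysine 4 of histone H3 (H3K4) marks active and poised promoters, and in the male germ line it also marks the sites where meiotic recombination starts. Transcripts that encode enzymes and core subunits of this pathway were followed in total RNA (input) and ribosome-bound RNA (IP) of testes from Adad2 mutant and wild-type mice. The 10 genes were chosen by name and function, out of 53239 gene symbols, and not by a cut on their values, though earlier results of these data were known. They are Ash2l, Wdr5, Rbbp5 and Dpy30, Kmt2a and Kmt2d, Prdm9, Kdm1a, Kdm5a and Kdm5b. For each, the expected counts of its Ensembl transcripts were summed, over 2 entries for Dpy30 up to 11 for Ash2l, and all 10 passed the filter on low counts in every comparison.

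The groups were 4 mutant animals (12, 69, 93 and 94), homozygous for the em3 allele of Adad2 (Adad2 M/M), and 3 wild-type animals (17, 121 and 140) and their values are given in this order of animals. All were C57BL/6 and were taken at 21 days, when late meiotic spermatocytes are abundant. ADAD2 is an RNA-binding protein of mid and late spermatocytes. All 7 animals, the wild-type ones included, were also heterozygous for RiboTag (Rpl22-HA), in which recombination by Cre adds an HA tag to a ribosomal protein, and Stra8-iCre, which makes that switch in germ cells entering differentiation. Each testis lysate gave an input, which holds every testis cell type, and an HA immunoprecipitate, which holds RNA on tagged ribosomes, so that 7 animals gave 14 libraries.

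H3K4 methylation is written by complexes in which a catalytic subunit such as KMT2A or KMT2D sits on a shared core of WDR5, RBBP5, ASH2L and DPY30. PRDM9 is a separate, germ cell methyltransferase whose zinc fingers choose recombination hotspots. KDM1A (LSD1) removes mono- and dimethylation by oxidation, and KDM5A and KDM5B remove di- and trimethylation through Jumonji domains. H3K4me2 was one of the marks examined in these mutants, and the question here is what became of the transcripts of its writers and erasers. By its own tests the study reported that genes of H3K4 methylation changed significantly neither in expression nor in ribosome association.

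The promoters of Prdm9 and Kdm5b are shown because these transcripts had the highest and the lowest log2 fold change among the 10 in the ribosome-bound fraction. Prdm9 lies at chr17:15543079-15564354 on the minus strand and Kdm5b at chr1:134560171-134635285 on the plus strand (GRCm38, GENCODE), both protein coding. Sequences are from RefSeq on GRCm38.p6, 250 bases before to 50 after the start, with motif matches in capitals, and 8 of the 10 members had an entry.
Prdm9: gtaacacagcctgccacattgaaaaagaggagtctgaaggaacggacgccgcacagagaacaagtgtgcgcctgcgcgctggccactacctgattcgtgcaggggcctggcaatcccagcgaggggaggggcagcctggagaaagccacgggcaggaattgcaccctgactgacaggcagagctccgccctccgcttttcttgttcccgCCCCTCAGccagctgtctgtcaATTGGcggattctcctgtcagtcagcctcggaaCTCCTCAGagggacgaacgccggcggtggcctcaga
Kdm5b: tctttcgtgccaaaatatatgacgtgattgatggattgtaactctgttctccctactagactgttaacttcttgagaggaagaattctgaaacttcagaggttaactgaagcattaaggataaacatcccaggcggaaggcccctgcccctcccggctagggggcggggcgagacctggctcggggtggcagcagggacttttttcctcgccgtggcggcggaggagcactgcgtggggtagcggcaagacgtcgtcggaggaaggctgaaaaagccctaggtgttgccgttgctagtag
The Prdm9 window lies at chr17:15564305-15564604 on the minus strand and holds CNCCTCAG, a motif of STRA8, at 2 places, 41 bases before and 14 after the start, and a CCAAT box 19 bases before it. The Kdm5b window lies at chr1:134559928-134560227 on the plus strand and holds none of the 5 motifs searched, which were those 2, the cyclic AMP response element TGACGTCA, the MYB motif TAACNGTT and the TATA box TATAAA, each read on both strands. Of 32851 promoters of this length, 7.94% held the STRA8 sequence, 37.4% CCAAT, 13.6% TATAAA, 1.79% TGACGTCA and 1.45% TAACNGTT. Among the other members with an entry, CCAAT stood in those of Dpy30 and Kdm1a and the MYB motif in that of Wdr5, and only the Prdm9 promoter of the 8 held the STRA8 sequence. The Kdm5b window has 17 CpG and the Prdm9 window 18, against a median of 7 over all promoters, which places them at percentiles of 68.6 and 70.3. Among the members, Kmt2a, Kdm1a, Kmt2d and Wdr5 had more (36 down to 22 CpG), and Rbbp5 and Dpy30 fewer (16 and 1).

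Library totals ran from 22987974 to 30330450 in input and from 25037235 to 30871330 in IP. Levels are in CPM, which are counts scaled by TMM to library size within each fraction. Adad2 itself had 10.8, 11.5, 8.9 and 6.3 CPM in mutant IP, against 97.8, 99.0 and 109 CPM in wild-type IP. The mutant libraries listed fewer annotated genes above 0 than the wild-type ones in IP, 12744 to 15024 against 19655 to 21880. In input the libraries of mutants 12 and 69 stood apart with 16024 and 15438 genes, those of mutants 93 and 94 listed 21334 and 27002, and the wild-type ones 25319 to 27791. Summed markers of late pachytene spermatocytes, a list that holds Adad2, were lower in mutants in IP (6684 to 7414 CPM, against 8816 to 10214 CPM in wild type) and in input (2828 to 3648 CPM against 4224 to 4776 CPM). Those of round spermatids were also lower in mutant input, 169 to 231 CPM against 319 to 409 CPM in wild type, and the 14 Sertoli cell markers were higher, 1341 to 1683 CPM against 1063 to 1287 CPM. In IP, 8 of 14 round spermatid markers were at 0 in all mutants and 1 in all wild-type animals, and the 8 Leydig cell markers summed to 3.01 to 47.2 CPM in mutants and 29.4 to 67.6 CPM in wild type, against 259.6 to 459 and 223 to 331 CPM in input. The part of these shifts in any difference below was not tested, and fewer cells of a type cannot be told apart from less RNA per cell. The lower number of genes listed went with genotype in IP, so its part in the marker sums and zeros cannot be told apart either.

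All 10 members were detected in every library, from 167 counts of Dpy30 to 9791 counts of Kmt2d. Levels are compared between genes per kilobase of the longest coding transcript, since TPM summed over entries follows short entries. On that scale Kdm1a led in mutant IP with 79.9 ± 4.84 CPM per kb and in wild-type IP with 102 ± 10.2 CPM per kb (SD, n = 4 and 3), and Wdr5 followed with 78.2 ± 11.1 and 78.0 ± 3.52 CPM per kb. The ranges of Kdm1a and Wdr5 overlapped in mutant IP and did not in wild-type IP. Ash2l followed at 43.8 ± 7.87 CPM per kb in mutant IP and 53.9 ± 4.03 CPM per kb in wild-type IP. In input Ash2l led, with 46.9 ± 5.44 CPM per kb in mutants and 63.8 ± 1.09 CPM per kb in wild type, and in mutants its range overlapped that of Kdm1a, which was next. At the other end stood Kmt2a, with 1.64 ± 0.682 CPM per kb in mutant IP and 1.26 ± 0.527 CPM per kb in wild-type IP. Kmt2d, its relative, was at 14.2 ± 2.45 and 14.3 ± 0.397 CPM per kb in the same groups. Prdm9 was at 13.4 ± 1.12 CPM per kb in mutant IP, where its range overlapped those of Kmt2d above and Rbbp5 below, and at 8.78 ± 0.586 CPM per kb in wild-type IP, where it overlapped Rbbp5.

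**Figure D1:**
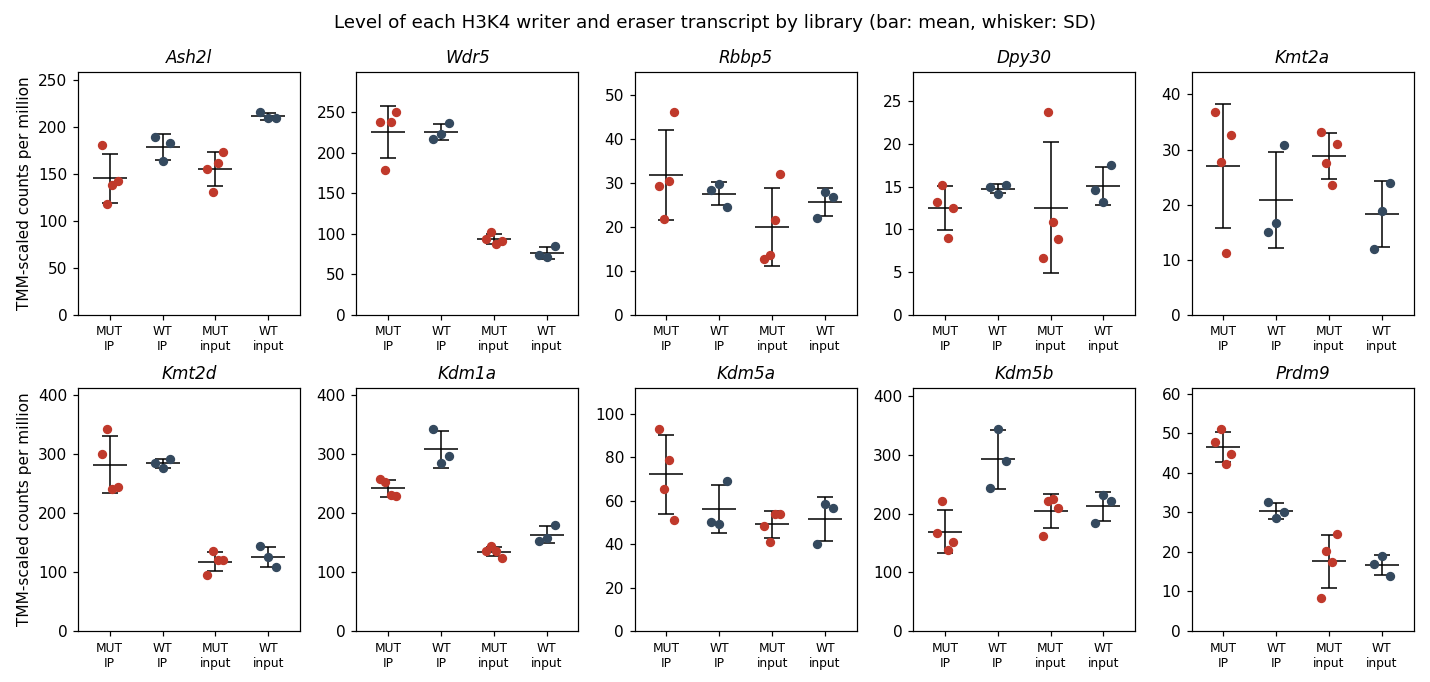
TMM-scaled CPM of each member in mutant IP, wild-type IP, mutant input and wild-type input (y axes from 0, 1 point per library, horizontal bar the mean and whisker the SD). Kdm5b is lower and Prdm9 higher in all 4 mutant IP libraries than in any wild-type IP library, while both overlap in input.

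The first question was which of these transcripts are more frequent on tagged ribosomes than in the whole testis. In mutants 3 of 10 were higher in IP than in input (Wdr5, Kmt2d and Kdm1a), and in wild type 5 of 10 (the same 3 with Kdm5b and Prdm9), by edgeR's quasi-likelihood test with the animal as a block (adjusted p under 0.05, Benjamini-Hochberg over all features). None was lower. The share of all features called higher was 6.35% in mutants and 13% in wild type. DESeq2 called 5 members higher and Kdm5b lower in mutants, and 8 higher in wild type, beside 13.9% and 22.9% of features called higher. Limma on log2(TPM + 1) called 6 and 9 members higher, beside 21.4% and 22.9%, on a scale that moved the median of all features up by 1.12 in mutants and 0.60 in wild type. WDR5 is the subunit that binds the catalytic subunits to the core, and its IP/input ratio of CPM was 2.35, 1.66, 2.77 and 2.81 in mutants and 2.86, 2.86 and 3.09 in wild type. Its log2 difference was 1.27 ± 0.177 in mutants (SE, adjusted p = 0.00934) and 1.89 ± 0.0757 in wild type (adjusted p = 0.00634). Kmt2d followed with 1.26 ± 0.129 in mutants (adjusted p = 0.00373) and 1.51 ± 0.117 in wild type (adjusted p = 0.00687), and Kdm1a with 0.85 ± 0.109 (adjusted p = 0.00678) and 1.24 ± 0.132 (adjusted p = 0.0109). The ratio of CPM of Kmt2d was 2.90, 2.43, 2.06 and 2.08 in mutants, against 2.73, 1.92 and 2.17 in wild type. That of Kdm1a was 1.75, 1.68, 1.74 and 1.90 in mutants, against 1.67, 2.18 and 1.78 in wild type, the narrowest spread of the 10 among mutants. All 3 had a ratio above 1 in each of the 7 animals.

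Prdm9 differed by 1.497 ± 0.364 in mutants (adjusted p = 0.0592) and by 1.21 ± 0.193 in wild type (adjusted p = 0.025). Its ratios of CPM were 5.24, 2.42, 2.47 and 1.89 in mutants, against 2.20, 1.86 and 1.48 in wild type, all above 1. None of the remaining core subunits passed the test. Ash2l differed by -0.10 ± 0.126 in mutants (adjusted p = 0.664) and 0.08 ± 0.0944 in wild type (adjusted p = 0.552), and its ratios of CPM were 1.08, 0.862, 0.876 and 0.845 in mutants, against 0.891, 0.851 and 0.772 in wild type. Wdr5 thus passed where Ash2l, its partner in the core, did not, and the difference between the 2 genes was not tested. Rbbp5, Dpy30, Kmt2a and Kdm5a had differences of 0.73, 0.15, -0.20 and 0.53 in mutants, and of 0.44, 0.31, 0.50 and 0.45 in wild type, none of which passed the test. The ratio of CPM of Dpy30 was 1.85, 0.61, 0.839 and 1.45 in mutants, against 0.886, 0.991 and 1.06 in wild type, and that of Kmt2a 1.02, 0.962, 0.484 and 1.08 in mutants, against 1.31, 1.21 and 0.867 in wild type, so that both lay on either side of 1. In mutants the median of the 10 was 0.63, against -0.63 over all features, and in wild type 0.64 against -0.60. That background depends on features with few counts. With a stricter filter of at least 10 counts in every library, the median over all features was -0.02 in mutants and -0.09 in wild type. The members moved by -0.16 and -0.17 at the median under that filter. The differences between IP and input also depend on how these fractions are scaled: the wild-type fit lies 0.34 above and the mutant fit 0.03 above the common scale of the 14 libraries, so that the sizes in mutants and in wild type cannot be set against each other here. Without wild-type animal 121 or 140 no member passed in wild type, where 4 samples were left. In mutants 1 passed without animal 93 or 94, and none without 12 and 69 together.

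The second question was whether ribosome-bound levels differ between genotypes. By edgeR none of the 10 passed the threshold in IP, where 0.00764% of features did. An unadjusted p under 0.05 was seen in 3 of the 10, where 11.6% of features had one (2695 lower in mutants and 352 higher). DESeq2 called 2 of the 10, Kdm5b and Prdm9, in a comparison in which it called 9.56% of features. KDM5B, an H3K4 demethylase that in mouse is prominent in testis, had the lowest log2 change of the 10. In IP Kdm5b had 168, 222, 137 and 152 CPM in mutants, against 289.6, 244 and 345 CPM in wild type. Every mutant library lay below every wild-type library, with mutant 69 closest. The means were 169.7 ± 36.7 CPM in mutants and 293 ± 50.7 CPM in wild type (SD, n = 4 and 3), a log2 change of -0.79 ± 0.191 (SE, adjusted p = 0.114 in edgeR and 0.00854 in DESeq2). Leaving out 1 animal at a time gave changes from -0.94 to -0.67, with adjusted p from 0.100 to 0.271 in edgeR.

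Prdm9 stood the other way round. It had 47.9, 51.2, 42.3 and 44.7 CPM in mutant IP, against 30.1, 32.6 and 28.5 CPM in wild-type IP. No mutant library overlapped a wild-type one. The log2 change was 0.61 ± 0.174 (SE, adjusted p = 0.117 in edgeR and 6.8e-05 in DESeq2), and from 0.56 to 0.66 with 1 animal left out at a time, with adjusted p from 0.0914 to 0.359 in edgeR. PRDM9 is made in the first stages of meiotic prophase, and beside its level the 16 markers of early meiotic germ cells, a list that holds Prdm9, summed to 5406 to 5827 CPM in mutant IP, against 4830 to 5517 CPM in wild-type IP. The 12 spermatogonia markers summed to 856 to 1148 CPM in mutant IP, against 749 to 939 CPM in wild-type IP, so that the ranges overlapped. In IP 9 of the 12 had a log2 change above 0, at a median of 0.42, against -0.15 over all features. The same 12 were lower in input, where they summed to 350 to 505 CPM in mutants and 522 to 561 CPM in wild type. These input ranges did not overlap, though 7 of the 12 had a log2 change above 0. The part of these markers in the Prdm9 difference was not tested.

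Kdm1a was the third member whose groups did not overlap in IP, where 16.4% of features did not overlap. It had 257, 252, 229.9 and 229 CPM in mutants, against 296, 343 and 285 CPM in wild type, a log2 change of -0.35 ± 0.103 (SE, adjusted p = 0.139 in edgeR and 0.146 in DESeq2). Wdr5 had 238, 179, 237 and 249.6 CPM in mutant IP, against 237, 217 and 222 CPM in wild-type IP, where only mutant 69 stood off. Of the writers, Ash2l was at -0.30 ± 0.154, Wdr5 at 0.00 ± 0.133 and Kmt2d at -0.01 ± 0.142 (SE), with adjusted p of 0.64, 1 and 1 in edgeR. Kmt2d, the catalytic subunit with the most counts, had 299.5, 343, 241 and 245 CPM in mutant IP, against 291, 285 and 276 CPM in wild-type IP, on both sides of them. RLE factors in place of TMM moved all changes in IP up by 0.105 at the median and turned that of Kmt2d to 0.10, the only sign it turned.

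The rest of the 10 overlapped in IP. Kmt2a, which keeps Hox genes on during development, had 36.7, 27.7, 11.1 and 32.6 CPM in mutants, against 30.8, 14.99 and 16.6 CPM in wild type, a log2 change of 0.38 ± 0.469 (adjusted p = 1 in edgeR). Mutant 93 was the lowest of all and the other mutants were spread over the upper part. Kdm5a, first known as a partner of the retinoblastoma protein, had 93.2, 65.6, 78.8 and 51.0 CPM in mutants, against 69.0, 49.97 and 49.3 CPM in wild type (0.36 ± 0.243, adjusted p = 0.911 in edgeR). Coding entries held only 16.0 ± 21.4% of the Kdm5a counts in IP and 22.6 ± 14.8% in input (SD, n = 7). On average, most counts in the Kdm5a sums thus lay on entries not labelled as coding. Rbbp5 had 29.3, 21.7, 30.4 and 46.1 CPM in mutants, against 24.6, 28.3 and 29.7 CPM in wild type, with mutant 94 highest. Dpy30, which docks on ASH2L, had 13.2, 15.1, 8.95 and 12.5 CPM in mutants, against 15.2, 14.9 and 14.2 CPM in wild type. Ash2l had 181, 118, 138 and 142 CPM in mutants, against 183, 189 and 163 CPM in wild type, and only mutant 12 reached the wild-type range.

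**Figure D2:**
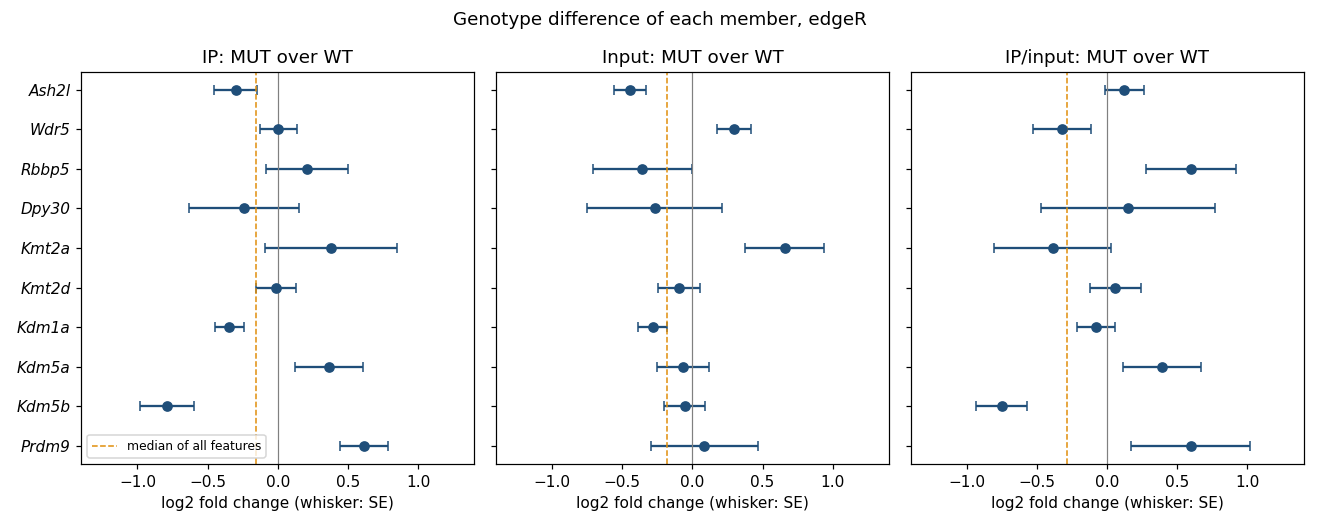
Log2 fold change of mutant over wild type for each member in IP, in input and in IP/input (x axes, point the edgeR estimate, whisker the SE, dashed line the median over all features). Kdm5b is at -0.79 and Prdm9 at 0.61 in IP, Ash2l is at -0.44 in input, and no member passed an adjusted p of 0.05 in edgeR.

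In input, the whole-testis fraction, none of the 10 passed in edgeR either, where 0.0082% of features did. An unadjusted p under 0.05 was seen in 4 (Ash2l, Wdr5, Kmt2a and Kdm1a), where 6.36% of features had one (1740 lower in mutants and 585 higher). Adad2 itself did not pass there, at a log2 change of -1.76 ± 0.369 (SE, adjusted p = 0.347 in edgeR and 0.000336 in DESeq2). A member that did not pass this test is therefore not shown to be unchanged. Ash2l, the core subunit that with RBBP5 stimulates the catalytic SET domain, had 155, 131, 161 and 174 CPM in mutants, against 209, 215 and 209 CPM in wild type. The groups did not overlap, and the log2 change was -0.44 ± 0.113 (SE, adjusted p = 0.347 in edgeR). DESeq2 called Ash2l alone of the 10, at an adjusted p of 0.00398, beside 3.13% of all features. Wdr5 ran the other way, with 93.3, 103, 87.5 and 91.5 CPM in mutants, against 84.5, 73.5 and 70.98 CPM in wild type, again with no overlap, a log2 change of 0.30 ± 0.118 and an adjusted p of 0.68. Kdm1a had 135, 143, 135 and 124 CPM in mutants, against 180.4, 152 and 158 CPM in wild type, a log2 change of -0.28 ± 0.104 (adjusted p = 0.593). Kmt2a, with 33.1, 27.5, 23.5 and 31.0 CPM in mutants and 23.9, 12.0 and 18.9 CPM in wild type, overlapped narrowly, at a log2 change of 0.66 ± 0.28 (adjusted p = 0.77). On the common scale of all 14 libraries Kdm1a overlapped in input and Kmt2a did not, so 3 of 10 lay apart on either scale, where 13.9% of features did on that of the input fit.

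Kdm5b and Prdm9, whose groups lay apart in IP, overlapped in input. Kdm5b had 161, 221, 226 and 210.3 CPM in mutant input, against 221, 184 and 233 CPM in wild-type input, a change of -0.06 ± 0.146. Prdm9 had 8.43, 20.2, 17.4 and 24.4 CPM in mutants, against 13.9, 16.9 and 19.0 CPM in wild type, a change of 0.09 ± 0.381. Mutant 12 had the lowest Prdm9 of all input libraries. Dpy30 and Rbbp5, the 2 smallest core subunits in counts, varied most among mutant inputs. Dpy30 had 6.59, 23.7, 10.9 and 8.9 CPM in mutants, against 17.5, 14.6 and 13.2 CPM in wild type, so that the mutant values lay on both sides. Rbbp5 had 12.8 and 13.6 CPM in mutants 12 and 69, the inputs with the fewest genes, and 21.7 and 31.9 CPM in mutants 93 and 94, against 22.1 to 28.0 CPM in wild type. Kmt2d had 95.3, 135, 119 and 121 CPM in mutants, against 109, 143 and 125 CPM in wild type (log2 change -0.10 ± 0.15). Kdm5a had 48.4, 40.8, 53.7 and 53.8 CPM in mutants, against 56.6, 39.9 and 58.3 CPM in wild type (-0.07 ± 0.185), and both overlapped.

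Whether ribosome association itself differed was asked of the IP/input ratio. In 1 model over all 14 libraries no feature of 16015 passed in edgeR (1156 had an unadjusted p under 0.05, and DESeq2 called 979), so percent called was 0 and no member passed. Of the 1156 features, 1080 were lower in mutants and 76 higher. The median over all features was -0.29, and 0.02 with the stricter filter. Kdm5b was the only member with an unadjusted p under 0.05 in edgeR (adjusted p = 0.443), beside 7.22% of all features, and the only one called by DESeq2 (adjusted p = 0.0259), beside 6.11%. Its ratio of CPM was 0.959, 0.956, 0.62 and 0.744 in mutants, against 1.34, 1.28 and 1.46 in wild type. All mutants lay below 1 and all wild-type animals above it. The means were 0.82 ± 0.167 and 1.36 ± 0.0929 (SD, n = 4 and 3). Ratios of CPM were added after seeing the data. An exact permutation test of this single ratio gave p = 0.0286, the smallest that 35 splits allow in a two-sided test. The log2 difference in the model was -0.75 ± 0.183. It kept its sign with each animal left out, from -0.89 to -0.74.

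Among the core subunits Rbbp5 stood higher in mutants. Its ratio of CPM was 2.12, 1.52, 1.43 and 1.48 in mutants, against 0.936, 1.24 and 1.05 in wild type, with no overlap and p = 0.0286 in the exact permutation test. In the model the difference was 0.60 ± 0.318 (SE, adjusted p = 0.769). Wdr5 did not overlap either, lower in mutants by a model difference of -0.32 ± 0.205 (adjusted p = 0.853), so that 3 of 10 lay apart, beside 9.91% of features. The mean Prdm9 ratio was 3.00 ± 1.51 in mutants and 1.85 ± 0.361 in wild type, and its model difference of 0.60 ± 0.422 (adjusted p = 0.893) was 0.27 without mutant 12, whose input was lowest, and 0.29 without wild-type animal 140. Of the 10 exact tests on ratios of CPM, 2 had an unadjusted p under 0.05.

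**Figure D3:**
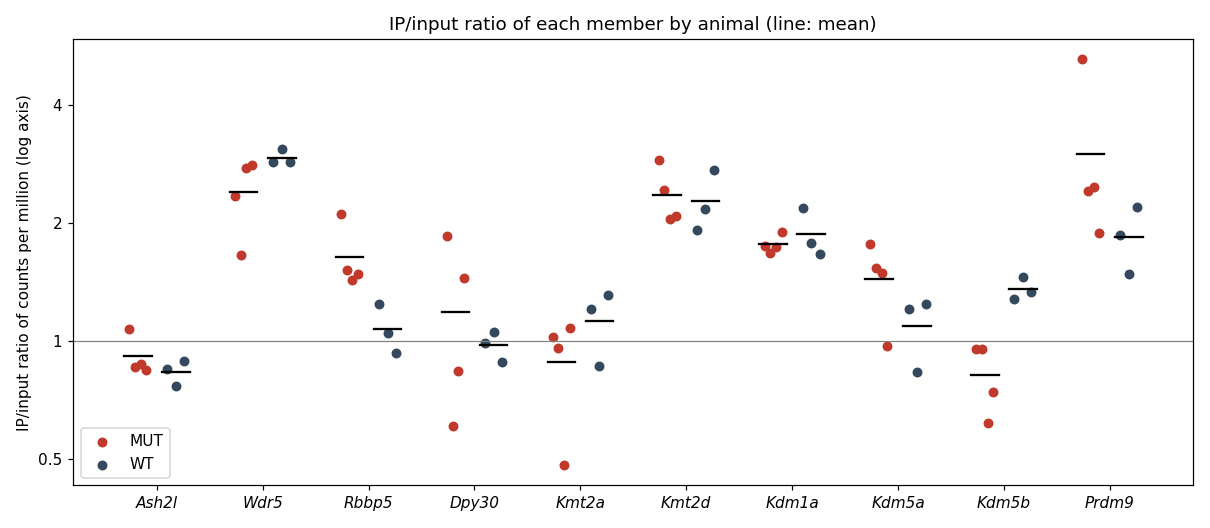
IP/input ratio of TMM-scaled CPM of each member (y axis, log scale), with 1 point per animal, mutants left of wild type, and the mean as a line. The 4 mutant Kdm5b ratios lie between 0.62 and 0.959, below the wild-type ratios of 1.28 to 1.46, and the mutant Rbbp5 ratios lie above the wild-type ones.

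The measure used in the study was the ratio of TPM, which is a different quantity where a gene has short entries. On ratios of TPM no member of the 10 reached p = 0.0286, and the smallest exact permutation p was that of Kmt2a, 0.0571, with a mean of 2.32 ± 1.08 in mutants and 5.66 ± 2.93 in wild type. The Rbbp5 groups did not overlap on TPM either (exact permutation p = 0.143). Rbbp5 had ratios of 4.44, 10.8, 3.23 and 2.46 in mutants, against 1.82, 2.04 and 2.04 in wild type. The Kdm5b ratio of TPM was 4.57, 9.81, 1.19 and 2.75 in mutants, against 5.67, 5.55 and 4.22 in wild type, so that the groups overlapped (exact permutation p = 0.857). Wdr5 and Kdm1a had mean ratios of TPM in mutants 1.12 and 1.23 times those in wild type, against 0.817 and 0.941 times on CPM. Within mutants the IP against input difference of Kdm5b was 1.75 by limma on log2(TPM + 1), against -0.28 by edgeR on counts. The same setting moved all features up by 1.12 at the median. Ash2l (0.88 against -0.10) and Kmt2a (0.80 against -0.20) changed sign but moved by less than all features did at the median.

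The transcript entries of Kdm5b differ in length, which weighs on TPM and not on counts. Kdm5b-204, a retained-intron entry of 605 bases, held 53.5%, 84.2%, 0% and 55.8% of the Kdm5b TPM in mutant IP, and 54.5%, 66.4% and 43.8% in wild-type IP, against at most 1.3% in mutant input and 3.77% in wild-type input. In counts the longest coding entry Kdm5b-201 (8714 bases) led in every library, with 63.9% to 82.1% in mutant IP and 53.2% to 68.9% in wild-type IP. The share of Kdm5b TPM on coding entries was 48.2 ± 26% in IP and 89.8 ± 4.7% in input (SD, n = 7), lower in IP in 6 of 7 animals, with p = 0.0312 in an exact sign-change test, 1 of 10 members tested and not adjusted. As a share of counts it was 90.9 ± 7.39% in IP and 96 ± 1.78% in input (exact p = 0.109). No other member had a p under 0.05 for the coding share of TPM. Of 20 exact permutation tests of a leading transcript between genotypes the smallest p was 0.114, for Wdr5-201 in IP.

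The lower Kdm5b of mutant IP was seen in both coding entries. Kdm5b-201 had 138, 142, 99.3 and 115 CPM in mutant IP, against 199, 150.1 and 183 CPM in wild-type IP. Kdm5b-203, a shorter coding entry of 5413 bases, had 19.3, 27.4, 37.9 and 25.3 CPM in mutant IP, against 66.9, 63.7 and 143 CPM in wild-type IP. The groups overlapped in neither. In input Kdm5b-203 was listed at 0 in mutants 12 and 69 and at 20.0 and 14.1 CPM in mutants 93 and 94, against 13.7 to 23.4 CPM in wild type. The coding entry Prdm9-206 (3460 bases) had 17.0, 40.4, 36.4 and 26.7 CPM in mutant IP, against 21.7, 23.2 and 23.4 CPM in wild-type IP, so that it overlapped where the gene sum did not, and mutant 12 had 27.9 CPM on the retained-intron entry Prdm9-201. RSEM divides reads that fit several entries by estimate, so these splits are less certain than the sums.

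**Figure D4:**
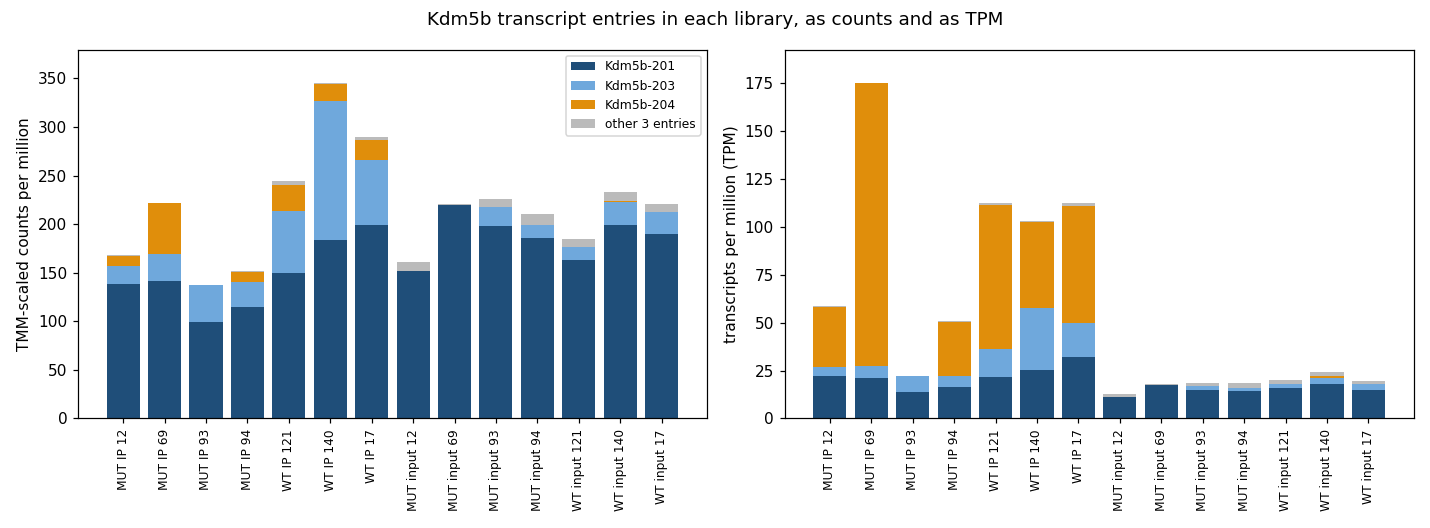
Kdm5b transcript entries in each library, as TMM-scaled CPM (left) and TPM (right), stacked, with mutant libraries left of wild-type ones within IP and within input. The retained-intron entry Kdm5b-204 takes 53.5% and 84.2% of the TPM in the IP of mutants 12 and 69, and 10.3 of 168 CPM and 52.5 of 222 CPM there, where Kdm5b-201 leads.

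Related genes were read by the same tests. Of 21 other methyltransferases and subunits of these complexes none was called between genotypes in IP or in input by edgeR, with median log2 changes of -0.01 and 0.00. DESeq2 called 0 in IP and 3 in input, where it called 9.56% and 3.13% of all features, and 3 and 6 had an unadjusted p under 0.05, as 11.6% and 6.36% of all features did. For IP against input the medians of the 21 were 0.25 in mutants and 0.74 in wild type, against -0.63 and -0.60 over all features. The stricter filter moved the latter to -0.02 and -0.09. IP was above input in 6 of the 21 in mutants and 12 in wild type, where 6.35% and 13% of all features were. These shares are the background of the demethylase and reader counts as well. Those called in both were Setd1a and Setd1b, catalytic subunits, their partner Cxxc1, which binds unmethylated CpG, and Kmt2b, Psip1 and Hcfc1. Setd1a differed by 1.80 ± 0.174 in mutants and 2.14 ± 0.091 in wild type (adjusted p = 0.0031 and 0.00634). Of the 19 other demethylases and subunits of the KDM1A complex, 18 were tested, and 3 were higher in IP in mutants and 8 in wild type, with Hdac1, the deacetylase of that complex, at 1.57 ± 0.167 and 1.67 ± 0.0726 (adjusted p = 0.00406 and 0.00634). None was called between genotypes in IP or input by edgeR. Of those 18, 0 in IP and 2 in input had an unadjusted p under 0.05, and DESeq2 called 0 and 1. Kdm5c, the X-linked relative of Kdm5b, was at -0.09 ± 0.358 in IP and 0.51 ± 0.202 in input, with adjusted p of 1 and 0.68.

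Among 14 measured PRDM9 partners and hotspot factors 6 were higher in IP in mutants and 10 in wild type, beside 6.35% and 13% of all features. None was called between genotypes in IP or input by edgeR, while 3 in IP and 0 in input had an unadjusted p under 0.05, beside 11.6% and 6.36% of all features, and DESeq2 called 2 and 0, beside 9.56% and 3.13%. Zcwpw1, which reads the marks PRDM9 writes, was at 0.34 ± 0.112 in IP (adjusted p = 0.209) and Hells, a remodeller that acts with PRDM9, at 0.53 ± 0.204 (adjusted p = 0.327). Of 22 readers of H3K4 methylation 21 were tested between genotypes and none was called in IP or input by edgeR, while 5 and 1 had an unadjusted p under 0.05 and DESeq2 called 3 and 1. Spin1, a reader of H3K4me3, was listed at 0 in all 4 mutant IP libraries and in the inputs of mutants 12 and 93, beside 40.9, 37.4 and 44.7 CPM in wild-type IP, and no fold is given for it. Whether RSEM assigned its reads to other entries was not tested, so that 0 says only what the tables list. Mdc1, a DNA damage response factor that acts with RNF8 on the XY body, had 668, 595, 614 and 757 CPM in mutant IP, against 889.6, 977 and 825 CPM in wild-type IP. It was at -0.45 ± 0.11 in IP (adjusted p = 0.114 in edgeR and 0.0177 in DESeq2). In input it was at -0.57 ± 0.124 (adjusted p = 0.347 in edgeR and 0.000352 in DESeq2). The mean IP/input ratio of TPM of Mdc1 in mutants was 1.56 times that in wild type, without overlap (exact permutation p = 0.0286). On CPM it was 1.08 times, with overlap (exact permutation p = 0.314). Rnf8 was at 0.26 ± 0.211 in IP and -0.04 ± 0.535 in input.

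Over the 14 libraries the likeness of 2 genes was taken as Pearson's r of log2(CPM + 1), in which the libraries share fraction and genotype, and it is given as a description. Wdr5, Kmt2d and Kdm1a ran together with r from 0.883 to 0.913, and Prdm9 ran with Kmt2d at 0.889. Ash2l ran against Prdm9 (-0.547), Wdr5 (-0.528) and Kmt2d (-0.493). Of 10525 protein coding genes, those most like Wdr5 were U2af2 and Timeless (0.987 and 0.985), those most like Kmt2d Baz2a and Srrm2 (0.991 and 0.987), those most like Kdm1a Skiv2l and Pdha2 (0.989 and 0.983) and those most like Prdm9 Xpc and Dcps (0.969 and 0.958). Kdm5b had no neighbour as near, with Tbc1d2 and Eif1b at 0.781 and 0.760. For the others the nearest were Gm5114 for Ash2l (0.902), Traf7 for Rbbp5 (0.910), Asap1 for Dpy30 (0.898), Hlcs for Kmt2a (0.896) and Spr for Kdm5a (0.870).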

How the data were processed

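Whole-testis lysates of 4 mutant and 3 wild-type animals gave an input and an HA immunoprecipitate each. Per the study's methods, stranded, rRNA-depleted, paired-end libraries were trimmed with Trimmomatic, freed of rRNA reads with Bowtie2 and quantified with RSEM 1.3.3 against Ensembl GRCm38 transcripts and transcripts assembled from testis. The deposited tables hold expected counts per transcript, and the authors also gave TPM, scaled to each library. Each holds 182829 entries, of which 133445 of 133849 Ensembl transcripts matched GENCODE M21 and 48888 were assembled. Assembled entries took 13.3 to 18.8% of counts and were not assigned to genes.

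Expected counts were summed per gene symbol (102531 features) and rounded. Features passing filterByExpr were tested with edgeR 4.0.16 (TMM, quasi-likelihood, Benjamini-Hochberg adjustment, threshold 0.05, R 4.3.3), with the animal as a block where IP and input were compared, since both came from 1 lysate of the animal by the sample titles and the methods. The genotype difference in IP/input left out features at 0 in any input, as the study did. EBSeq, used by the study on input, was not run. Alternatives were DESeq2 1.42.0, limma 3.58.1 on log2(TPM + 1), RLE factors, other filters, no block and leaving out each animal. Leaving out mutants 12 and 69 together, and ratios of CPM in place of TPM, were added after seeing the data. Levels between genes were planned in TPM and are given as CPM per kb, because TPM sums followed short entries. CPM and overlaps use the scale of each fraction, and ratios and likeness the common scale of 14 libraries. Single ratios and shares were tested by exact permutation over 35 splits of the animals or 128 sign changes, two-sided and unadjusted (scipy 1.17.1). Precision of means is given by the SD between animals. The SE of a log2 change was derived from the edgeR test, as the size of the change over the square root of its F statistic.

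The members and gene lists were chosen with earlier results of these data known. Genes named are the 10 members, the called or up to 4 smallest-p genes of each list, the 2 protein coding genes most like each member (mean CPM of at least 5) and Adad2. The scripts were tested on simulated data.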

Additional observations from a re-analysis of the deposited data

Results flagged for a closer look

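Of 30 groups tested for an outlier, 2 had 1 animal far from the others, both of them groups of 4 mutant ratios of TPM, and chance flags about 1 in 20. In both it was mutant 12, whose input had few annotated genes above 0. The Prdm9 IP/input ratio of TPM was 35.4 in that animal, with a group mean of 11.6 ± 15.9 (SD, n = 4), and 27.9 of its 47.9 CPM of Prdm9 in IP lay on the retained-intron entry Prdm9-201. The Kdm5a ratio of TPM was 6.46 in that animal, with a group mean of 3.33 ± 2.08 (SD, n = 4).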

How the results depend on the processing

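The counts of members called moved with the test and with the animals left out. DESeq2 called 1 of 10 in input, 2 in IP, 1 for the genotype difference in IP/input, 6 for IP over or under input in mutants (Kdm5b among them, lower in IP) and 8 in wild type. Limma on log2(TPM + 1) called 6 in mutants and 9 in wild type for IP against input, where it moved all features up by 1.12 and 0.60 at the median. Without mutants 12 and 69 together no member was called in mutants, and with 1 animal left out at a time 1 to 3 were called in mutants and 0 to 4 in wild type. RLE factors, both other filters and no block left every such count within 1.5 times. Input and IP were paired by animal. Without the replicate block 4 members were called in mutants and 5 in wild type, the Dpy30 difference became -0.0127 in mutants and -0.0041 between genotypes, and the Kdm5b coding share had an exact p of 0.00466.

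Several signs turned. In input, limma gave -0.0028 for Wdr5 and -0.00554 for Prdm9, Kdm5b was 0.00774 in DESeq2, 0.00775 with RLE and 0.0115 with the stricter filter, and without mutants 12 and 69 Rbbp5 (-0.36 with them), Kdm5a and Kdm5b were at 0.0799, 0.0700 and 0.0474. In IP, Kmt2a was -0.10 in limma, and Kmt2d was 0.10 in DESeq2, 0.10 with RLE, 0.0908 with the stricter filter and 0.20 in limma. For IP against input, the stricter filter gave -0.0178 for Dpy30 in mutants and -0.0892 for Ash2l in wild type, and limma gave 0.88, 0.80 and 1.75 for Ash2l, Kmt2a and Kdm5b in mutants, of which the first 2 moved by less than that median shift. For the genotype difference, Ash2l was -0.0335 and Kmt2d -0.19 without mutants 12 and 69, Wdr5 was 0.12 in limma, and Kdm1a 0.28 in limma and 0.00317 with the stricter filter. On CPM the mutant over wild-type ratio was 0.817 for Wdr5 and 0.941 for Kdm1a, and the Kmt2a coding share in counts was 6.94 points lower in IP (-6.94). The cause was not tested.

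With 1 animal left out, signs turned within these ranges: in input Kmt2d -0.19 to 0.00839, Kdm5a -0.22 to 0.0152, Kdm5b -0.15 to 0.0447 and Prdm9 -0.11 to 0.32. In IP they were -0.0341 to 0.10 for Wdr5, -0.00123 to 0.36 for Rbbp5 and -0.12 to 0.0692 for Kmt2d. For IP against input they were -0.12 to 0.43 for Dpy30 and -0.34 to 0.0549 for Kmt2a in mutants, and -0.011 to 0.16 for Ash2l in wild type. For the genotype difference they were -0.0881 to 0.14 for Ash2l, -0.14 to 0.39 for Dpy30, -0.12 to 0.0906 for Kmt2d and -0.29 to 0.0339 for Kdm1a. The mutant over wild-type ratio of TPM ran from 0.893 to 1.63 for Kdm5a, 0.551 to 1.11 for Kdm5b and 0.996 to 4.29 for Prdm9, and the Kdm5b-204 share differed by -1.56 to 0.325 points in input and -18.5 to 9.58 points in IP. Prdm9 and Kdm5b in IP and Ash2l in input kept their signs under every alternative run. Ash2l did so in IP as well, and Kdm1a and Dpy30 in both fractions, so that a kept sign does not set those results apart.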
